A study of Mus musculus with 6 samples.

Results

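Bone marrow-derived macrophages given lipopolysaccharide (LPS) together with the preparation labelled HACA were compared with macrophages given LPS alone. The comparison rests on 4 of the 6 libraries of the series, 2 from each of these groups, chosen by their labels and not by any measured value. Both groups received LPS, so the difference between them is the addition of HACA. The other 2 libraries are untreated controls, labelled wild type, and their levels are given beside some of the results. These controls also entered the main fit, so their spread counts in each of its p-values. For the other 4 libraries the genotype label holds the treatment, so their strain is not stated, and no dose or exposure time is given. They do not spell out HACA, while the series title concerns a nanomedicine of hyaluronic acid applied to psoriasis in mice. No group received HACA without LPS. The labels do not state that the 2 libraries of a group were grown or harvested independently. Each p-value therefore measures only the spread between libraries of the same group, control included in the main fit, and this spread may be technical.

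LPS is a cell wall component of Gram-negative bacteria that macrophages sense through the receptor TLR4 with its co-receptors CD14 and MD-2. One arm of the response, through the adaptor MyD88, drives NF-kB and AP-1 and switches on cytokines, chemokines and inducible enzymes. The other, through TRIF, induces interferon beta, which acts back on the cell to switch on antiviral genes. Hyaluronic acid is a matrix polysaccharide bound on macrophages mainly by CD44.

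Total counts lay between 12529874 and 15379496 per library, and 13883 to 16642 genes per library had at least 10 counts. CPM below is a count scaled to library size times edgeR's TMM factor, which was 0.812 and 0.676 in the LPS libraries and 1.19 and 1.14 with HACA. Genes that were lower with HACA took up 26.6% and 27.8% of the counts in LPS alone and 13.2% and 13.7% with HACA. Of all counts, 99.16% fell on transcripts that hold at least 100 exon bases shared with no other annotated transcript. Where in a transcript the reads lay is not given. If only such bases were counted, some genes were read over a small part of their exons. That part was 2.64% for Nlrp3, 3.22% for Clec4e, 3.499% for Psap, 5.08% for Nlrp1b, 6.39% for Serpinb2, 6.56% for Il12b, 9.13% for Slc7a2, 9.37% for Pltp, 10.8% for Tnf and 18 to 25% for Nfkbiz, Oasl1, Cemip2, Cd44, Myd88, Slc43a2 and Nos2. For these genes a shift in isoform use and a shift in expression cannot be told apart. The macrophage marker Lyz2 held 39305 and 47787 CPM in LPS and 30358 and 32899 CPM with HACA, and the complement gene C1qb 1149 and 2094 against 910.2 and 1555 CPM. These 2 genes do not stand for their list. Over 15 measured macrophage markers the median log2 fold change was −0.08, where all genes had 0.06. Scaled by library totals, the medians were 0.58 and 0.70. In each group, control included, the library numbered 1 held more stromal and cell cycle transcripts than that numbered 2.

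With HACA, 1312 of 17113 genes were lower than in LPS alone (7.67%) and 983 were higher (5.74%), by edgeR's quasi-likelihood test at a Benjamini-Hochberg adjusted p under 0.05, so that 13.4% were called. The 2 groups of libraries did not overlap for 57.7% of all genes. With TMM scaling, falls outnumbered rises among abundant genes and rises outnumbered falls among scarce ones. Of the 103 genes with a mean of at least 1000 CPM over the 4 libraries, 45 were lower and 0 higher (31 and 5 with library totals). Between 100 and 1000 CPM 365 of 1213 were lower and 19 higher (138 and 110 with library totals). Between 10 and 100 CPM 601 of 4993 were lower and 232 higher, and library totals turned this balance to 217 lower and 952 higher. Between 1 and 10 CPM 292 of 8106 were lower and 616 higher (132 and 1974 with library totals). Among called genes with over 3 counts in both groups, 368 of 1290 fell at least 4-fold and 331 of 871 rose at least 4-fold. A further 112 genes called higher had at most 3 counts over both LPS libraries, and for them the fitted fold change has no firm value.

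The balance between rises and falls depends on the scaling. With TMM the genes tested had a median log2 difference of 0.06. Scaling by library totals put it at 0.70 and gave 522 lower (3.05%) and 3501 higher (20.5%), so that 87.0% of calls were higher in place of 42.8%. Of the 1312 genes lower under TMM, 521 stayed lower under library totals and 0 became higher, and all 983 higher genes stayed higher. The number of calls also rested on single libraries. Without LPS+HACA replicate 1 it was 216 lower (1.2%) and 152 higher (0.842%), and without LPS+HACA replicate 2 it was 377 (2.06%) and 292 (1.59%). Without control replicate 1 it was 652 (3.61%) and 344 (1.9%), and without control replicate 2 it was 637 (3.5%) and 317 (1.74%). Without LPS replicate 1 there were 1793 lower (9.73%) and 1617 higher (8.78%), and without LPS replicate 2 there were 1032 (5.65%) and 794 (4.35%). The 4 LPS and LPS+HACA libraries fitted alone gave 509 lower (3.2%) and 252 higher (1.59%). Of 31475 transcripts fitted one by one, 6.31% were lower and 4.75% higher. In all, 174 of the lower and 121 of the higher genes passed in each of the 17 alternative analyses.

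**Figure D1:**
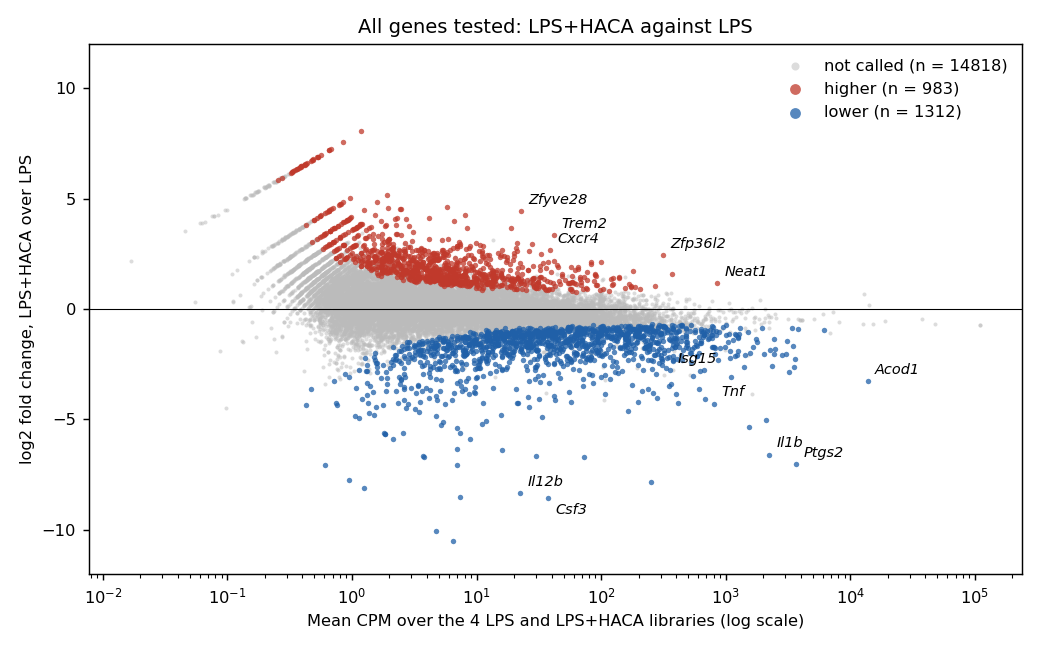
Each point is a gene, with its mean CPM over the 4 LPS and LPS+HACA libraries on a log axis and its log2 fold change (LPS+HACA over LPS) on the vertical axis. The 983 genes called higher are red and the 1312 called lower are blue. With this scaling no gene above 1000 CPM is red, and Acod1, Ptgs2 and Il1b stand out on the lower right.

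The 12 largest falls, among called genes of at least 10 CPM in LPS whose libraries did not overlap, included the genes of cytokines, growth factors and vasoactive peptides and that of an inducible cyclooxygenase. Ptgs2, which encodes that cyclooxygenase (chromosome 1, 150100031 to 150108227, GRCm38), held 6881 and 7729 CPM in the LPS libraries and 51.4 and 62.1 CPM with HACA, a log2 change of −7.01 ± 0.27 (± SE, adjusted p = 0.000104). It remained above its control level of 2.07 and 2.71 CPM in both libraries. Csf2, which encodes GM-CSF, had 91 and 175 counts in LPS and no count in either HACA library, at least 135-fold lower against a floor of 3 counts over the group. Csf3, encoding the granulocyte growth factor G-CSF, stood at 26.1 and 124 CPM in LPS and 0.0607 and 0.338 CPM with HACA (−8.53 ± 1.15, adjusted p = 0.0118). The 2 LPS libraries differed widely for this gene, and both lay far above the HACA libraries.

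Il12b, the subunit shared by interleukins 12 and 23, fell from 36.7 and 52.6 to 0.121 and 0.135 CPM (−8.35 ± 0.45, adjusted p = 0.0014). Il6 fell from 48.8 and 69.1 to 0.364 and 0.811 CPM (−6.64 ± 0.54, adjusted p = 0.00167). The interleukin 1 genes followed, Il1a from 208 and 792 to 1.52 and 2.84 CPM (−7.84 ± 0.93, adjusted p = 0.00961) and Il1b from 1894 and 6921 to 30.3 and 60.99 CPM (−6.59 ± 0.88, adjusted p = 0.0136). For both, LPS replicate 2 was more than 3 times LPS replicate 1, and the lower LPS library was still far above each HACA library. Vasoactive peptide genes were among the same set. Edn1, which encodes endothelin 1, fell from 33.7 and 30.2 to 0.668 and 0.0676 CPM (−6.36 ± 0.67, adjusted p = 0.00339), and Adm, which encodes the vasodilator adrenomedullin, from 6.896 and 20.7 to 0.121 and 0.203 CPM (−6.35 ± 0.76, adjusted p = 0.00489). Shisa3, a regulator of Wnt and FGF signalling, fell from 115 and 175 to 1.52 and 1.22 CPM (−6.72 ± 0.52, adjusted p = 0.00165). Areg, a ligand of the epidermal growth factor receptor, had 51 and 254 counts in LPS and 0 and 1 with HACA, a ratio of 464 (95% interval 82.7 to 18398). Plat, the tissue plasminogen activator, had 79 and 206 and 3 and 0 counts, a ratio of 145 (95% interval 48.99 to 705). Calls were lost without LPS+HACA replicate 1 for Csf3, Areg, Il1a and Il1b (adjusted p from 0.077 to 0.134) and without LPS+HACA replicate 2 for Csf3, Areg, Il1a and Il1b (adjusted p from 0.0625 to 0.113). Calls ended as well with DESeq2 for Csf2 (adjusted p = 0.131) and with limma-voom for Csf3 and Areg (adjusted p from 0.0517 to 0.0698).

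**Figure D2:**
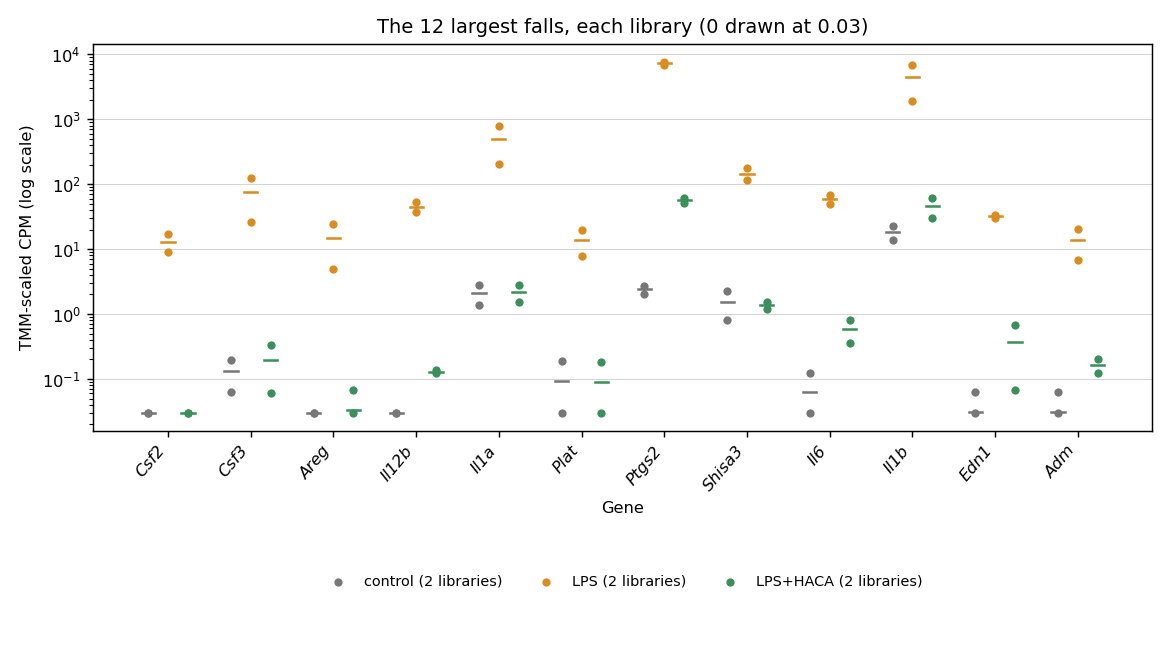
TMM-scaled CPM on a log axis of the 12 genes with the largest falls among those of at least 10 CPM, with 1 point per library, a bar at the mean of the 2 libraries and values of 0 drawn at 0.03. All LPS points lie above all LPS+HACA points for each gene, and the 2 LPS points of Csf3, Areg, Il1a and Il1b lie far apart.

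Among proinflammatory cytokine genes, 16 of 17 measured members fell and none rose, with a median log2 fold change of −4.19, where all genes had a median of 0.06 and 7.67% were lower. Under library totals there were 15 lower and 0 higher, with a median of −3.51. Tnf, the central early cytokine, went from 998 and 2046 to 65.5 and 91.2 CPM (−4.28 ± 0.43, adjusted p = 0.00328). Il23a, the second subunit of interleukin 23, went from 2.56 and 18.5 to 0.121 and 0.473 CPM (−5.13 ± 1.09, adjusted p = 0.0284), and LPS replicate 2 carried most of its LPS level. The 1 member that did not pass was Tnfsf10, the TRAIL gene (named after its value was seen), at −1.26 ± 0.56 (adjusted p = 0.179). Chemokine genes had 10 of 14 lower and none higher (median −2.83), and under library totals there were 9 lower and 0 higher, with a median of −2.19. Ccl4, an attractant of monocytes and lymphocytes, fell from 2650.0 and 3357 to 91.2 and 56.8 CPM (−5.34 ± 0.31, adjusted p = 0.00089). Cxcl3, a neutrophil attractant, fell from 10.5 and 32.5 to 0.364 and 0.811 CPM (−5.19 ± 0.75, adjusted p = 0.00807). The interferon-inducible Cxcl10 fell from 189 and 121 to 38.7 and 35.2 CPM (−2.07 ± 0.30, adjusted p = 0.00777), and its HACA libraries remained well above the control values of 1.38 and 0.8598 CPM. Ccl2 was one of 5 listed chemokines with too few counts to be tested, which need not mean low expression. Of the psoriasis-linked myeloid mediators, which share members with both lists, 11 of 13 fell (median −4.13; under library totals 10 lower, 0 higher, median −3.50). Members lower in these 3 lists numbered 9, 6 and 6 without LPS+HACA replicate 1 and 10, 9 and 8 without LPS+HACA replicate 2. These calls ended without LPS replicate 2 for Il23a (adjusted p = 0.0732), without LPS+HACA replicate 1 for Il23a, Cxcl3 and Cxcl10 (adjusted p from 0.0504 to 0.158) and without LPS+HACA replicate 2 for Il23a (adjusted p = 0.104). The test was missed without control replicate 1 for Il23a (adjusted p = 0.0649) and without control replicate 2 for Il23a (adjusted p = 0.0668). Other settings ended calls with limma-voom for Il23a (adjusted p = 0.122) and in the fit of the 4 LPS and LPS+HACA libraries for Il23a (adjusted p = 0.0699).

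Anti-inflammatory cytokines and receptor antagonists had 1 of 10 lower and none higher (median −0.32; under library totals 1 lower, 2 higher, median 0.34). The gene that fell was Il1rn, the interleukin 1 receptor antagonist, from 15.2 and 19.9 to 2.92 and 2.57 CPM (−2.67 ± 0.33, adjusted p = 0.00543). Il10 stood at 9.26 and 4.82 CPM in LPS and 8.02 and 4.39 CPM with HACA (−0.18 ± 0.43, adjusted p = 0.817), and the libraries overlapped. Among chemotactic receptors 1 of 14 fell and 1 rose (median −0.41; under library totals 1 lower, 2 higher, median 0.26). The counts of both lists lay near the shares over all genes, 7.67% lower and 5.74% higher. Ccrl2, a non-signalling receptor of the attractant chemerin, fell from 102 and 162 to 9.595 and 14.2 CPM (−3.47 ± 0.33, adjusted p = 0.00267). Cxcr4, the receptor of CXCL12, moved the other way, from 10.6 and 10.5 to 58.4 and 75.8 CPM (2.67 ± 0.24, adjusted p = 0.00256), towards control values of 162 and 147 CPM. Members lower in these 2 lists numbered 3 and 2 without LPS replicate 1, where 1 anti-inflammatory gene was also higher, and DESeq2 called 4 chemotactic receptors lower.

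Enzymes that mark the LPS-activated state fell as well. Acod1, which makes itaconate from a Krebs cycle intermediate, was the most abundant gene called lower (chromosome 14, 103046977 to 103056573, GRCm38). It held 20481 and 29355 CPM in LPS and 2244 and 2912 CPM with HACA (−3.27 ± 0.35, adjusted p = 0.00353), against 240.1 and 441 CPM in control. Nos2, the inducible nitric oxide synthase, fell from 96.1 and 65.8 to 5.83 and 3.38 CPM (−4.13 ± 0.37, adjusted p = 0.0026). Its substrate transporter Slc7a2 had 12 and 75 counts in LPS and 2 and 0 with HACA, a ratio of 66.2 (95% interval 17.8 to 555). In the nitric oxide and arginine list 4 of 9 fell and none rose (median −1.43; under library totals 4 lower, 1 higher, median −0.73). All genes had 7.67% lower and 5.74% higher (3.05% and 20.5% under library totals). Arg1, which competes for the same arginine, was scarce throughout, at 1.08 and 1.16 CPM in LPS and 1.15 and 1.56 CPM with HACA (0.27 ± 0.54, adjusted p = 0.772).

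Prostanoid and leukotriene genes went both ways, 5 of 17 lower and 3 higher (median 0.14; under library totals 2 lower, 4 higher, median 0.77). The shares over all genes were 7.67% lower and 5.74% higher (3.05% and 20.5% under library totals). Beside Ptgs2, the inducible prostaglandin E synthase Ptges fell from 119 and 338 to 25.7 and 38.1 CPM (−2.84 ± 0.54, adjusted p = 0.0204). Ptgs1, the constitutive cyclooxygenase, had 1 and 0 counts in LPS and 26 and 17 with HACA, a ratio of 28.2 (95% interval 4.81 to 1141) in the opposite direction to Ptgs2. Ptger4, a prostaglandin E2 receptor, rose from 1.87 and 1.64 to 4.92 and 7.71 CPM (1.84 ± 0.39, adjusted p = 0.022). Members lower in the nitric oxide list and in this list numbered 2 and 5 without LPS replicate 2, 1 and 1 without LPS+HACA replicate 1, 3 and 1 without LPS+HACA replicate 2, 4 and 2 without control replicate 1 and 3 and 2 without control replicate 2. Members of the prostanoid list that were higher numbered 1 without LPS replicate 2, 0 without LPS+HACA replicate 1, 1 without LPS+HACA replicate 2, 1 without control replicate 1 and 1 without control replicate 2. The test was missed without LPS replicate 2 for Slc7a2 and Ptger4 (adjusted p from 0.0523 to 0.155), without LPS+HACA replicate 1 for Slc7a2, Ptges, Ptgs1 and Ptger4 (adjusted p from 0.0574 to 0.126) and without LPS+HACA replicate 2 for Slc7a2, Ptges and Ptger4 (adjusted p from 0.0783 to 0.131). Significance was lost without control replicate 1 for Ptger4 (adjusted p = 0.0553) and without control replicate 2 for Ptger4 (adjusted p = 0.057). Calls also ended with limma-voom for Slc7a2 (adjusted p = 0.113) and in the fit of the 4 LPS and LPS+HACA libraries for Slc7a2, Ptgs1 and Ptger4 (adjusted p from 0.0562 to 0.0579).

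The interferon arm fell across its whole list. All 29 measured interferon-stimulated antiviral genes were lower, with log2 fold changes between −2.78 and −1.07 and a median of −1.85. Under library totals there were 18 lower and 0 higher, with a median of −1.20. List counts in this paragraph stand beside 7.67% lower and 5.74% higher over all genes (3.05% and 20.5% under library totals). Isg15, a ubiquitin-like protein attached to other proteins, fell from 614 and 641 to 102 and 81.3 CPM (−2.78 ± 0.22, adjusted p = 0.00165). Oasl1, a brake on interferon production, fell from 15.2 and 18.3 to 2.25 and 2.91 CPM (−2.70 ± 0.32, adjusted p = 0.00459). Neither returned to control, where Isg15 held 18.6 and 20.04 CPM and Oasl1 0.502 and 0.595 CPM. Guanylate-binding proteins and immunity-related GTPases, which attack intracellular microbes, had 9 of 14 lower and none higher (median −1.64; under library totals 5 lower, 0 higher, median −1.03). Gbp6 fell from 73.9 and 47.7 to 11.5 and 11.7 CPM (−2.39 ± 0.36, adjusted p = 0.00845) and Gbp10 from 20.2 and 19.6 to 3.52 and 4.73 CPM (−2.27 ± 0.30, adjusted p = 0.00569). These close paralogs may share reads, so their separate levels are uncertain.

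Class I antigen presentation and immunoproteasome genes had 13 of 20 lower and none higher (median −1.08), and the libraries of the groups did not overlap for any of the 20 genes, where 57.7% of all genes did not overlap. Under library totals there were 2 lower and 0 higher, with a median of −0.44. List counts in this paragraph stand beside 7.67% lower and 5.74% higher over all genes (3.05% and 20.5% under library totals). The heavy chain genes H2-Q7 and H2-Q6, again near-identical neighbours, fell from 25.3 and 74.9 to 6.98 and 13.9 CPM (−2.26 ± 0.59, adjusted p = 0.0482) and from 18.03 and 34.5 to 4.37 and 7.64 CPM (−2.13 ± 0.48, adjusted p = 0.0267). Of interferon receptors, kinases and transcription factors 6 of 18 fell and none rose (median −0.44; under library totals 1 lower, 4 higher, median 0.21). Irf7, which amplifies interferon production, fell from 38.2 and 37.7 to 10.9 and 12.8 CPM (−1.68 ± 0.27, adjusted p = 0.00982), and the cytokine-signal factor Stat5a from 10.6 and 17.3 to 5.22 and 5.41 CPM (−1.39 ± 0.32, adjusted p = 0.0292). In the antiviral, GTPase, class I and interferon regulator lists, in that order, the members lower numbered 28, 9, 5 and 2 without LPS replicate 2, 15, 3, 1 and 0 without LPS+HACA replicate 1, 14, 4, 1 and 1 without LPS+HACA replicate 2, 25, 8, 4 and 1 without control replicate 1 and 25, 8, 4 and 1 without control replicate 2. Significance was lost without LPS+HACA replicate 1 for Gbp6, Gbp10, H2-Q7, H2-Q6, Irf7 and Stat5a (adjusted p from 0.0552 to 0.2), without LPS replicate 2 for H2-Q7, H2-Q6 and Stat5a (adjusted p from 0.0734 to 0.132) and without LPS+HACA replicate 2 for H2-Q7, H2-Q6 and Stat5a (adjusted p from 0.0591 to 0.132). The threshold was missed without control replicate 1 for H2-Q7 and Stat5a (adjusted p = 0.0774) and without control replicate 2 for H2-Q7 and Stat5a (adjusted p from 0.0779 to 0.0798). Some calls ended with library totals for H2-Q7, H2-Q6 and Stat5a (adjusted p from 0.0516 to 0.104), with limma-voom for H2-Q7 (adjusted p = 0.0511) and in the fit of the 4 LPS and LPS+HACA libraries for H2-Q7, H2-Q6 and Stat5a (adjusted p from 0.0559 to 0.0833). Further losses came when each gene was counted by its main transcript for H2-Q7 (adjusted p = 0.0568).

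The promoters of genes that moved were read for 5 short motifs, because whole lists had changed together. The windows, from RefSeq on GRCm38.p6, run from 250 bases before to 50 bases after each annotated start, and symbols matched for 9634 of the genes tested. A core of the interferon-stimulated response element, GAAA repeated after 2 bases of any kind, was in 7.76% of 1005 windows of genes lower with HACA, in 2.72% of 809 windows of genes higher, and in 3.29% of the 12117 windows of all genes tested (3.44% of all 32851 windows). For an NF-kB-type motif, GGG and TTTCC with 2 bases of any kind between them, the shares were 3.18%, 2.1%, 1.76% and 1.63%. They were 3.88%, 1.85%, 3.02% and 1.79% for the cAMP response element TGACGTCA, and 6.17%, 4.08%, 4.01% and 5.20% for the AP-1 site TGAGTCA. For the E-box CACGTG they were 9.65%, 9.15%, 9.78% and 7.15%. Both strands were searched, and a match is a description of the letters only. Printed here are the windows of the 3 lower and 2 higher named genes with the highest CPM whose window holds a match, written 5′ to 3′ on the gene's strand with the matches in capitals. Ptgs2 lies at chr1:150099781-150100080 on the plus strand and holds 1 CACGTG, after the start. Txn1, the gene of the redox protein thioredoxin, lies at chr4:57956362-57956661 on the minus strand and holds 1 NF-kB-type motif on the opposite strand. Isg15 lies at chr4:156200769-156201068 on the minus strand and holds 3 overlapping matches to the response element core shortly before the start. Nceh1 lies at chr3:27182754-27183053 on the plus strand with 1 CACGTG, and P2rx7 at chr5:122643677-122643976 on the plus strand with 1 TGAGTCA at the upstream end of this window, which is 1 of 2 listed for the gene.
Ptgs2: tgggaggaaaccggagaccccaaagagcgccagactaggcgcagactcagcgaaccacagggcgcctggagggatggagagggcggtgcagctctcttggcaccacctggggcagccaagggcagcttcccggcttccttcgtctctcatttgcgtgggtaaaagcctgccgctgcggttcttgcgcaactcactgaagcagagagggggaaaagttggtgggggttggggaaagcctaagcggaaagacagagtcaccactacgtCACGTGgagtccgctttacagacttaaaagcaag
Txn1: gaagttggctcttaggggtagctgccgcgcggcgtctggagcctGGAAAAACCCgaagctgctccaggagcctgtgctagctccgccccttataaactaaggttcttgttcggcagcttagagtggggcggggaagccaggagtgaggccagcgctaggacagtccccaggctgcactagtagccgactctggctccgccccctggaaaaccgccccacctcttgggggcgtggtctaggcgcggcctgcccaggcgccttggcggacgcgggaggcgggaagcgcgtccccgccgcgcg
Isg15: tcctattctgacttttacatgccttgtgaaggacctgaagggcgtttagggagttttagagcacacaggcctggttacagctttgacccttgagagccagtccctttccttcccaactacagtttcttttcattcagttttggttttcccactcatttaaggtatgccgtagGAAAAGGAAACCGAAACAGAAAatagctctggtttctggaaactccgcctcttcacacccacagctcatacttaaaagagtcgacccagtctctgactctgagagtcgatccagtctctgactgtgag
Nceh1: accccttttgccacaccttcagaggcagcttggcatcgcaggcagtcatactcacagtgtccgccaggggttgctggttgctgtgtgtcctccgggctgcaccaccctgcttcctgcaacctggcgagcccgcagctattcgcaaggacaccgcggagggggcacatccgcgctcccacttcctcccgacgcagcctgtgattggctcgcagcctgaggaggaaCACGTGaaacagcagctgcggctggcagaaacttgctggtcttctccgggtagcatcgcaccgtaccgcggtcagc
P2rx7: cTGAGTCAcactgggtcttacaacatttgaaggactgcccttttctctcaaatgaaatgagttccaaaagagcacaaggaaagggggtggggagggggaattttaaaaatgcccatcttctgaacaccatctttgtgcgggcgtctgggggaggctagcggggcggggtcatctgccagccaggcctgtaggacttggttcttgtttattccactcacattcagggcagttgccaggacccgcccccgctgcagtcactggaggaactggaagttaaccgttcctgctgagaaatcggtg

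The LPS receptor gene was not called, while 2 of its partners fell. Tlr4 held 133 and 112 CPM in LPS and 123 and 134 CPM with HACA (0.07 ± 0.20, adjusted p = 0.844), and Tlr2, the receptor of bacterial lipopeptides, 1840.0 and 2038 against 1354 and 1642 CPM (−0.37 ± 0.20, adjusted p = 0.237). Cd14, which hands LPS to the receptor, fell from 2785 and 5262 to 575 and 779 CPM (−2.57 ± 0.34, adjusted p = 0.00569). The adaptor Myd88 fell from 13.3 and 19.7 to 4.74 and 5.68 CPM (−1.66 ± 0.41, adjusted p = 0.0373), and Tab1, a partner of the kinase TAK1, rose from 9.16 and 5.59 to 30.2 and 29.6 CPM (2.02 ± 0.29, adjusted p = 0.00715). The receptor complex list had 5 of 21 lower and 1 higher (median −0.64; under library totals 1 lower, 1 higher, median 0.01). Over all genes 7.67% were lower and 5.74% higher, and 3.05% and 20.5% under library totals.

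NF-kB subunits, inhibitors and feedback genes had 10 of 20 lower and none higher (median −1.20; under library totals 6 lower, 1 higher, median −0.52). List counts in this paragraph stand beside 7.67% lower and 5.74% higher over all genes (3.05% and 20.5% under library totals). Nfkbiz, a nuclear cofactor needed for Il6 and Il12b induction, fell from 88.5 and 119 to 14.03 and 17.2 CPM (−2.73 ± 0.31, adjusted p = 0.00421). Tnfaip3, the ubiquitin editor A20, fell from 452 and 696 to 82.4 and 99.7 CPM (−2.66 ± 0.31, adjusted p = 0.00457). Signalling brakes had 9 of 16 lower and none higher (median −1.69; under library totals 6 lower, 0 higher, median −1.02). Both leading members are MAP kinase phosphatases, Dusp2 falling from 344 and 527 to 26.4 and 44.96 CPM (−3.61 ± 0.46, adjusted p = 0.00569) and Dusp8 from 43.2 and 73.3 to 5.53 and 6.42 CPM (−3.28 ± 0.33, adjusted p = 0.00298). Immediate early and stress genes had 7 of 14 lower and 1 higher (median −1.54; under library totals 3 lower, 2 higher, median −0.89). Ier2 fell from 124 and 291 to 31.5 and 39.01 CPM (−2.56 ± 0.40, adjusted p = 0.00919) and Fosl2, an AP-1 subunit, from 190.1 and 398 to 69.3 and 75.2 CPM (−2.03 ± 0.35, adjusted p = 0.0127), where control held 149 and 112 CPM. The AP-1 subunit Fos rose, from 33.5 and 27.1 to 83.5 and 88.2 CPM (1.50 ± 0.25, adjusted p = 0.0111). In the receptor complex, NF-kB, signalling brake and immediate early lists, in that order, members lower numbered 8, 12, 11 and 9 without LPS replicate 1, 1, 4, 4 and 2 without LPS+HACA replicate 1, 1, 5, 7 and 2 without LPS+HACA replicate 2, 4, 6, 7 and 4 without control replicate 1 and 4, 6, 7 and 4 without control replicate 2. The threshold was missed without LPS replicate 2 for Myd88 (adjusted p = 0.094), without LPS+HACA replicate 1 for Myd88, Ier2, Fosl2 and Fos (adjusted p from 0.0552 to 0.186) and without LPS+HACA replicate 2 for Myd88, Fosl2 and Fos (adjusted p from 0.0535 to 0.121). Further losses came with library totals for Myd88 (adjusted p = 0.103) and in the fit of the 4 LPS and LPS+HACA libraries for Myd88 (adjusted p = 0.0543).

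**Figure D3:**
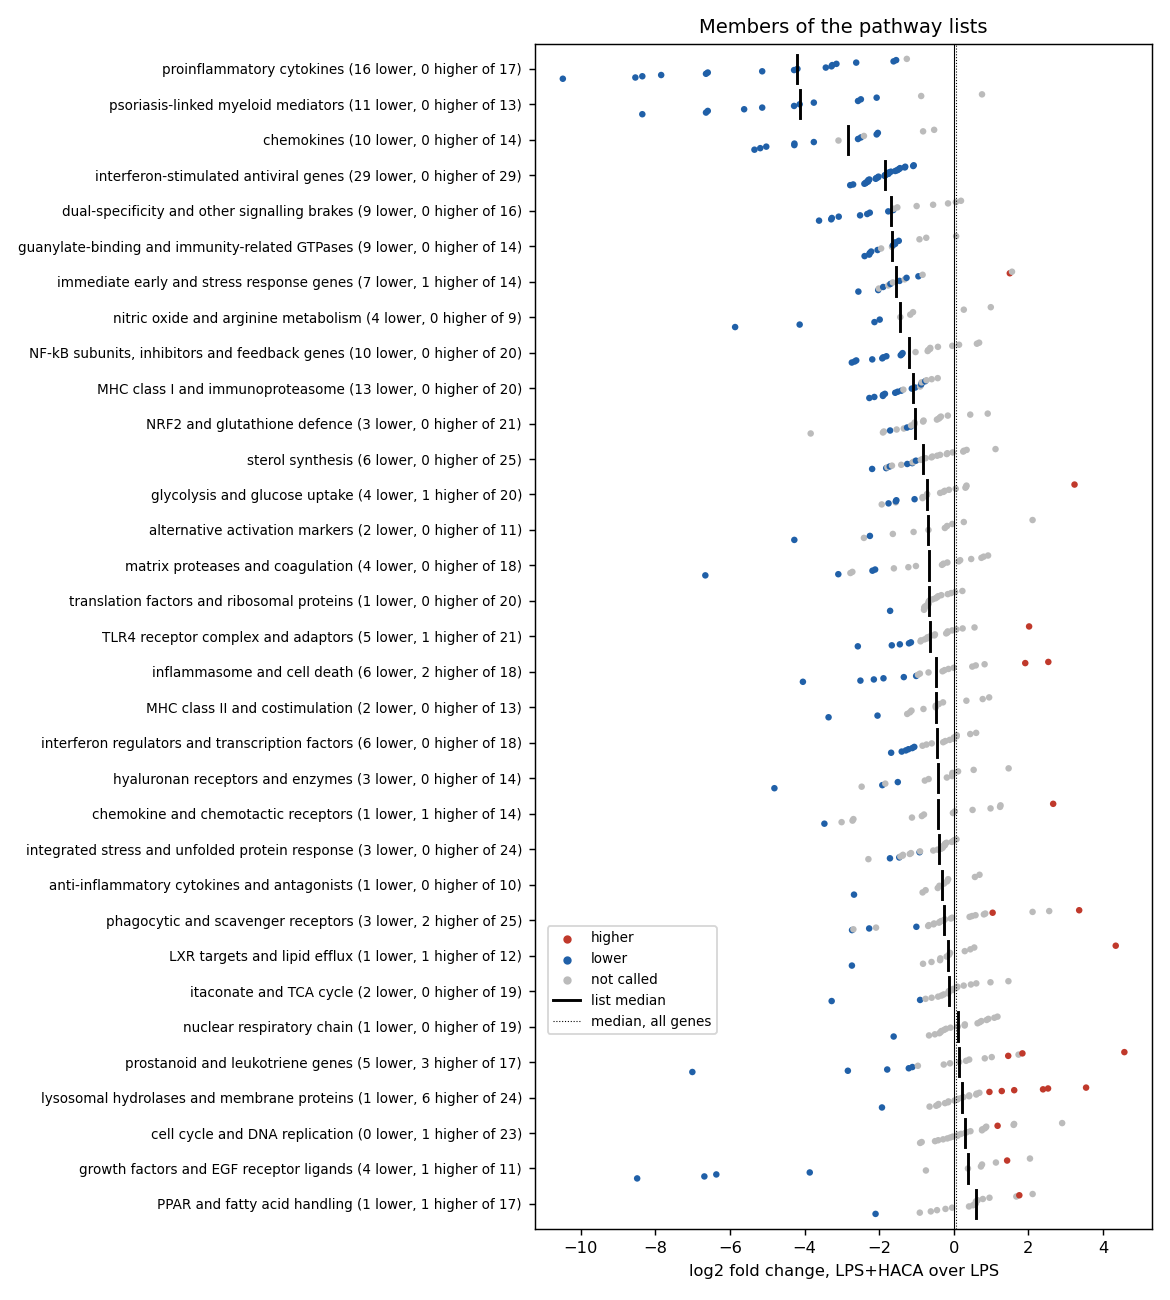
The log2 fold change (LPS+HACA over LPS) of each measured member of 33 pathway lists, ordered by list median, with blue points for members called lower, red for higher and grey for neither. Black bars are list medians and the dotted line is the median of all genes, 0.06. Cytokines, psoriasis-linked mediators and chemokines have the lowest medians, and lysosomal genes hold 6 red points. Points of genes with at most 3 counts in a group are fitted values with no firm size, and moving groups at 0 to their floor changed no list median.

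Metabolic and stress lists had medians between −1.05 and 0.58 where all genes had 0.06, and the count called in each is to be read against 7.67% lower and 5.74% higher over all genes. Glycolysis and glucose uptake had 4 of 20 lower and 1 higher (median −0.72; under library totals 2 lower, 2 higher, median −0.05). The phosphofructokinase gene Pfkp fell from 245 and 436 to 85.5 and 117 CPM (−1.75 ± 0.31, adjusted p = 0.0135) and the hexokinase gene Hk2 from 83.3 and 178 to 35.5 and 53.8 CPM (−1.55 ± 0.38, adjusted p = 0.0342). The glucose transporter gene Slc2a3 had 1 and 2 counts in LPS and 31 and 15 with HACA, a ratio of 10.1 (95% interval 3.24 to 50.6). In the itaconate and TCA cycle list 2 of 19 fell and none rose (median −0.13; under library totals 1 lower, 3 higher, median 0.51): Acod1, and the citrate synthase gene Cs at −0.90 ± 0.24 (adjusted p = 0.0477). Nuclear respiratory chain genes had 1 of 19 lower and none higher (median 0.11; under library totals 1 lower, 3 higher, median 0.74). The 1 called was Cycs, encoding cytochrome c, which fell from 96.2 and 93.1 to 31.8 and 30.2 CPM (−1.61 ± 0.21, adjusted p = 0.00569).

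Sterol synthesis genes had 6 of 25 lower and none higher (median −0.83; under library totals 1 lower, 1 higher, median −0.21). Hsd17b7, an enzyme of the pathway, fell from 175 and 96.04 to 37.7 and 21.8 CPM (−2.19 ± 0.39, adjusted p = 0.013). LXR targets and efflux genes had 1 of 12 lower and 1 higher (median −0.16; under library totals 0 lower, 3 higher, median 0.46). Ch25h, which makes 25-hydroxycholesterol, fell from 39.5 and 15.8 to 4.86 and 3.45 CPM (−2.73 ± 0.61, adjusted p = 0.0284). Pltp, a phospholipid transfer protein, had 0 and 1 counts in LPS and 15 and 21 with HACA, a ratio of 23.6 (95% interval 3.98 to 959.7). The lipid carrier gene Apoe stood at 2.86 and 3.28 CPM in LPS and 2.79 and 6.22 CPM with HACA (0.55 ± 0.43, adjusted p = 0.419), below its control level of 21.96 and 31.9 CPM in both. Fatty acid genes had 1 of 17 lower and 1 higher (median 0.58; under library totals 1 lower, 8 higher, median 1.22). The acyl-CoA synthetase gene Acsl1 fell from 324 and 650.4 to 87.2 and 141 CPM (−2.10 ± 0.39, adjusted p = 0.0154) and Rxra, the shared partner of lipid-sensing nuclear receptors, rose from 11.4 and 12.3 to 34.6 and 45.8 CPM (1.76 ± 0.24, adjusted p = 0.00668).

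NRF2 and glutathione defence genes had 3 of 21 lower and none higher (median −1.05; under library totals 1 lower, 2 higher, median −0.37). The mitochondrial superoxide dismutase gene Sod2 fell from 2049 and 3034 to 683 and 875 CPM (−1.71 ± 0.29, adjusted p = 0.0122) and Txn1, whose promoter is printed above, from 709 and 1009.5 to 348 and 374 CPM (−1.25 ± 0.23, adjusted p = 0.0138). Hmox1, the haem oxygenase gene, varied widely between replicates, 268 and 981 CPM in LPS and 170.3 and 429 CPM with HACA (−1.06 ± 0.75, adjusted p = 0.399). It was called lower when the replicate number was added to the edgeR fit (adjusted p = 0.0232). The integrated stress and unfolded protein list had 3 of 24 lower and none higher (median −0.39; under library totals 0 lower, 0 higher, median 0.26), led by the serine synthesis gene Psat1 (−1.71 ± 0.40, adjusted p = 0.0304) and the chaperone gene Hspa5 (−1.46 ± 0.28, adjusted p = 0.0161). Over the fits that left out 1 library, members lower ranged from 0 to 7 (glycolysis), 1 to 2 (TCA), 0 to 1 (respiratory chain), 0 to 7 (sterol), 0 to 1 (LXR), 0 to 1 (fatty acid), 0 to 8 (NRF2) and 0 to 6 (stress), with the fewest without LPS+HACA replicate 1 or 2. Calls were lost without LPS+HACA replicate 1 for Pfkp, Hk2, Slc2a3, Cs, Cycs, Ch25h, Pltp, Acsl1, Sod2, Txn1, Psat1 and Hspa5 (adjusted p from 0.0516 to 0.184), without LPS replicate 2 for Hk2, Cs and Psat1 (adjusted p from 0.0793 to 0.0976) and without LPS+HACA replicate 2 for Hk2, Cs, Hsd17b7, Ch25h, Pltp, Txn1, Psat1 and Hspa5 (adjusted p from 0.0653 to 0.235). These calls ended without control replicate 1 for Hk2, Slc2a3, Cs, Pltp and Psat1 (adjusted p from 0.0544 to 0.0837), without control replicate 2 for Hk2, Slc2a3, Cs, Pltp and Psat1 (adjusted p from 0.0587 to 0.0832) and without LPS replicate 1 for Slc2a3 and Ch25h (adjusted p from 0.0503 to 0.0516). Calls ended as well in the fit of the 4 LPS and LPS+HACA libraries for Pfkp, Hk2, Slc2a3, Cs, Pltp, Acsl1, Txn1, Psat1 and Hspa5 (adjusted p from 0.0508 to 0.0938), with library totals for Hk2, Cs, Ch25h, Txn1, Psat1 and Hspa5 (adjusted p from 0.0526 to 0.477) and with limma-voom for Slc2a3 and Pltp (adjusted p from 0.0545 to 0.0891). Other settings ended calls when each gene was counted by its main transcript for Slc2a3 and Cs (adjusted p from 0.0626 to 0.158) and without the robust option for Cs (adjusted p = 0.0543).

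Among called genes of at least 10 CPM with HACA whose libraries did not overlap, the 12 with the largest rises all had a higher mean in untreated cells than with HACA. Zfyve28, whose product binds endosomes (chromosome 5, 34194893 to 34288449, GRCm38), held 2.36 and 1.64 CPM in LPS and 46.8 and 40.4 CPM with HACA (4.44 ± 0.30, adjusted p = 0.00147), against 95.04 and 117 CPM in control. Gpr162, an orphan G protein-coupled receptor gene, went from 0.197 and 0.674 to 7.17 and 14.9 CPM (4.63 ± 0.65, adjusted p = 0.00685). Bmf, a BH3-only activator of cell death, went from 2.96 and 2.505 to 32.8 and 36.9 CPM (3.67 ± 0.26, adjusted p = 0.00165). For Zfyve28 and Bmf both HACA libraries lay between the LPS and the control libraries, and for Gpr162 the HACA and control libraries overlapped.

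Trem2, a lipid-sensing receptor of macrophages (chromosome 17, 48346401 to 48354147, GRCm38), rose from 8.18 and 6.55 to 70.7 and 80.9 CPM (3.36 ± 0.25, adjusted p = 0.00165), with 155 and 178 CPM in control. Atp13a2, a lysosomal transporter gene, rose from 1.67 and 2.697 to 15.4 and 19.5 CPM (2.99 ± 0.34, adjusted p = 0.00394). Slc43a2, a transporter of neutral amino acids, rose from 3.35 and 9.25 to 36.3 and 62.00 CPM (2.96 ± 0.48, adjusted p = 0.011). Predicted genes in the set were Gm15513 (4.28 ± 0.33, adjusted p = 0.00165) and Gm11699 (3.98 ± 0.34, adjusted p = 0.00213). Gm15513 lies in an intron of Zfyve28 on the same strand, and Gm11699 is a processed pseudogene. Whether their reads come from Zfyve28 and from a parent gene was not tested, so these may not be separate rises. The set held also Rassf2, a Ras-association domain gene (2.99 ± 0.24, adjusted p = 0.00165), and the zinc finger gene Zfp395 (3.66 ± 0.40, adjusted p = 0.00384). The others were the ubiquitin ligase gene Rnf144b (3.03 ± 0.50, adjusted p = 0.011) and Nol4l (3.16 ± 0.31, adjusted p = 0.00272). These calls ended without LPS+HACA replicate 1 for Rnf144b (adjusted p = 0.0505).

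**Figure D4:**
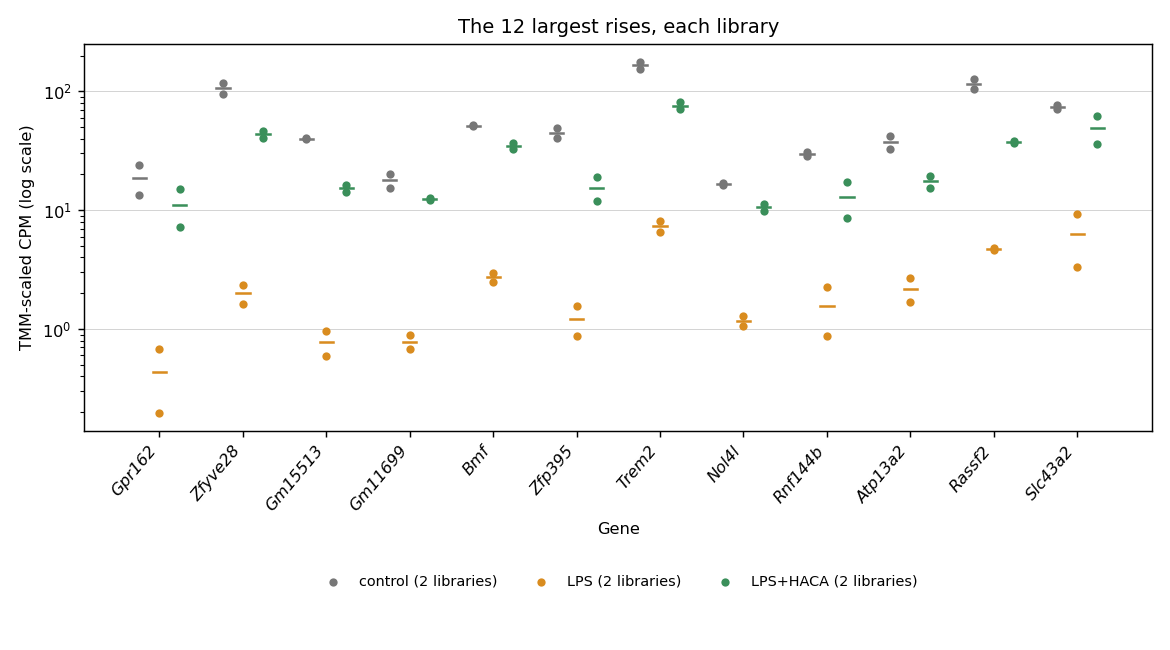
TMM-scaled CPM on a log axis of the 12 genes with the largest rises among those of at least 10 CPM, with 1 point per library and a bar at the mean of the 2 libraries. For each gene both LPS+HACA points lie above both LPS points, and the Zfyve28 and Trem2 points with HACA lie below those of control.

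Among abundant genes the rises were smaller. Zfp36l2, which binds AU-rich elements and promotes mRNA decay, rose from 100.1 and 94.1 to 504 and 561 CPM (2.45 ± 0.20, adjusted p = 0.00165). The nuclear RNA Neat1, a scaffold of paraspeckles, rose from 446 and 612 to 1122 and 1245 CPM (1.16 ± 0.22, adjusted p = 0.0163). Irf2bp2, a transcriptional corepressor gene, rose from 148 and 219.7 to 459 and 647 CPM (1.59 ± 0.27, adjusted p = 0.0116). Each lay below its control level with HACA, as for Zfp36l2 at 771 and 772 CPM in control. Nfam1, a receptor with an activation motif, rose from 97.3 and 71.3 to 293 and 264 CPM (1.72 ± 0.23, adjusted p = 0.00614), the cholesterol ester hydrolase gene Nceh1 from 217 and 137 to 381 and 343 CPM (1.03 ± 0.25, adjusted p = 0.0361) and the DNA demethylation gene Tet3 from 124 and 161 to 262 and 272 CPM (0.90 ± 0.21, adjusted p = 0.0303). The other 4 of the 6 most abundant genes called lower, after Acod1 and Ptgs2, were as follows. Clic4, a chloride channel family gene, fell from 4821 and 7417 to 969.9 and 1018 CPM (−2.62 ± 0.25, adjusted p = 0.00272). The cell surface proteoglycan gene Sdc4 fell from 4144 and 7227 to 690.5 and 863 CPM (−2.87 ± 0.32, adjusted p = 0.0039). Marcksl1, which links membrane and actin, fell from 4391 and 7487 to 903 and 1579.6 CPM (−2.26 ± 0.39, adjusted p = 0.0127), and Rassf4 from 6776 and 9354 to 3649 and 4794 CPM (−0.93 ± 0.24, adjusted p = 0.0387). The test was missed without LPS+HACA replicate 1 for Neat1, Nceh1, Tet3, Marcksl1 and Rassf4 (adjusted p from 0.0694 to 0.259), without LPS+HACA replicate 2 for Neat1, Irf2bp2, Nceh1, Tet3 and Rassf4 (adjusted p from 0.0612 to 0.144) and without control replicate 2 for Neat1, Nceh1, Tet3 and Rassf4 (adjusted p from 0.0501 to 0.0944). Significance was lost without LPS replicate 2 for Nceh1, Marcksl1 and Rassf4 (adjusted p from 0.0613 to 0.0732) and without control replicate 1 for Nceh1, Tet3 and Rassf4 (adjusted p from 0.0823 to 0.0966). Calls also ended in the fit of the 4 LPS and LPS+HACA libraries for Neat1, Nceh1, Tet3 and Rassf4 (adjusted p from 0.0533 to 0.11) and with library totals for Rassf4 (adjusted p = 0.303).

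Lysosomal genes were the list with the most rises, though their summed level did not rise under TMM scaling. The sum was 15858 and 15959 CPM in LPS and 13779 and 13890 CPM with HACA. Its direction depends on the scaling, since the TMM factors were 0.812 and 0.676 in LPS and 1.19 and 1.14 with HACA. Of 24 measured members 6 rose and 1 fell, where 5.74% of all genes rose (median 0.23; under library totals 1 lower, 11 higher, median 0.93). Psap, the precursor of the saposins that help degrade sphingolipids, rose from 5.32 and 6.45 to 24.4 and 43.6 CPM (2.53 ± 0.37, adjusted p = 0.00808). The protease gene Ctsf had 0 and 2 counts in LPS and 26 and 13 with HACA, a ratio of 12.8 (95% interval 3.32 to 109.5). Tfec, a transcription factor of the MiT family, was the member that fell, from 156 and 107 to 26.5 and 42.8 CPM (−1.92 ± 0.34, adjusted p = 0.0136). Members higher numbered 2 without LPS+HACA replicate 1, 2 without LPS+HACA replicate 2, 3 without control replicate 1 and 3 without control replicate 2. Phagocytic and scavenger receptors had 3 of 25 lower and 2 higher (median −0.26; under library totals 2 lower, 6 higher, median 0.38). Members of this list lower numbered 1 without LPS+HACA replicate 1, and members higher 1 without LPS+HACA replicate 1, 1 without LPS+HACA replicate 2, 1 without control replicate 1 and 1 without control replicate 2. Over all genes 7.67% were lower and 5.74% higher. With Trem2, the lipoprotein receptor Scarb1 rose (1.04 ± 0.28, adjusted p = 0.0482). Fcgr2b, the inhibitory IgG receptor, fell from 354 and 541 to 52.7 and 82.6 CPM (−2.73 ± 0.32, adjusted p = 0.0047), and the damage-sensing lectin Clec4e from 97.03 and 104 to 15.2 and 26.6 CPM (−2.27 ± 0.44, adjusted p = 0.0174). Significance was lost without LPS replicate 1 for Ctsf and Clec4e (adjusted p from 0.0563 to 0.0593), without LPS+HACA replicate 1 for Ctsf, Tfec, Scarb1 and Clec4e (adjusted p from 0.0916 to 0.266) and without LPS+HACA replicate 2 for Ctsf and Scarb1 (adjusted p from 0.0646 to 0.11). The threshold was missed without control replicate 1 for Ctsf and Scarb1 (adjusted p from 0.085 to 0.114), without control replicate 2 for Ctsf and Scarb1 (adjusted p from 0.0883 to 0.119) and without LPS replicate 2 for Scarb1 and Clec4e (adjusted p from 0.0987 to 0.102). Some calls ended with limma-voom for Ctsf and Scarb1 (adjusted p from 0.0627 to 0.0819), in the fit of the 4 LPS and LPS+HACA libraries for Ctsf and Scarb1 (adjusted p from 0.0964 to 0.106) and when each gene was counted by its main transcript for Ctsf (adjusted p = 0.061). Further losses came with RLE size factors for Scarb1 (adjusted p = 0.0527).

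Inflammasome and cell death genes had 6 of 18 lower and 2 higher (median −0.49; under library totals 4 lower, 5 higher, median 0.18). Nlrp3, the inducible sensor, fell from 11.8 and 23.99 to 2.004 and 4.33 CPM (−2.50 ± 0.48, adjusted p = 0.0169), while the sensor Nlrp1b rose from 0.887 and 1.16 to 7.59 and 4.33 CPM (2.54 ± 0.42, adjusted p = 0.0107). P2rx7, the ATP-gated channel that triggers NLRP3, rose from 11.3 and 8.19 to 37.3 and 36.4 CPM (1.92 ± 0.26, adjusted p = 0.00642). Bcl2a1a, a survival gene with close paralogs that may share its reads, fell from 331 and 722 to 26.1 and 37.8 CPM (−4.04 ± 0.50, adjusted p = 0.00569). Class II and costimulatory genes had 2 of 13 lower and none higher (median −0.48; under library totals 2 lower, 1 higher, median 0.18). Across all genes tested 7.67% were lower and 5.74% higher. Cd40 fell from 119 and 193 to 13.2 and 17.2 CPM (−3.36 ± 0.31, adjusted p = 0.00266) and Cd274, the checkpoint ligand PD-L1, from 1155 and 1469 to 241 and 396 CPM (−2.04 ± 0.39, adjusted p = 0.0175). The costimulatory gene Cd86 stood at 64.5 and 123 against 34.4 and 72.4 CPM, with overlapping libraries (−0.81 ± 0.52, adjusted p = 0.34). With the replicate number added to the edgeR fit it was called lower (adjusted p = 0.00838). Inflammasome members higher numbered 1 without LPS+HACA replicate 1. In these 2 lists members lower numbered 7 and 1 without LPS replicate 2, 2 and 1 without LPS+HACA replicate 1 and 3 and 2 without LPS+HACA replicate 2. The threshold was missed without LPS+HACA replicate 1 for Nlrp3, Nlrp1b and Cd274 (adjusted p from 0.0649 to 0.102), without LPS replicate 1 for Cd274 (adjusted p = 0.06) and without LPS replicate 2 for Cd274 (adjusted p = 0.128). Further losses came in the fit of the 4 LPS and LPS+HACA libraries for Nlrp3 (adjusted p = 0.0556).

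Hyaluronan receptors and enzymes were listed because the series title names hyaluronic acid. Of 14 measured members 3 fell and none rose (median −0.43; under library totals 2 lower, 0 higher, median 0.22). The shares over all genes were 7.67% lower and 5.74% higher, and 3.05% and 20.5% under library totals. Cd44, the main hyaluronan receptor, fell from 74.9 and 74.1 to 25.2 and 27.5 CPM (−1.50 ± 0.23, adjusted p = 0.00913), with 28.8 and 37.8 CPM in control. Tnfaip6, whose product TSG-6 modifies hyaluronan, had 31 and 29 counts in LPS and 2 and 1 with HACA, a ratio of 30.4 (95% interval 9.93 to 152). Cemip2, a cell surface hyaluronidase gene, fell from 16.2 and 9.44 to 4.19 and 2.57 CPM (−1.91 ± 0.42, adjusted p = 0.0248). Members lower numbered 0 without LPS+HACA replicate 1 and 0 without LPS+HACA replicate 2. Calls were lost without LPS+HACA replicate 1 for Cd44, Tnfaip6 and Cemip2 (adjusted p from 0.077 to 0.105), without LPS+HACA replicate 2 for Cd44, Tnfaip6 and Cemip2 (adjusted p from 0.0527 to 0.132) and without control replicate 1 for Cemip2 (adjusted p = 0.0539). These calls ended without control replicate 2 for Cemip2 (adjusted p = 0.0552). Calls ended as well with library totals for Cemip2 (adjusted p = 0.078) and in the fit of the 4 LPS and LPS+HACA libraries for Cemip2 (adjusted p = 0.0647).

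Matrix proteases and coagulation genes had 4 of 18 lower and none higher (median −0.66; under library totals 3 lower, 2 higher, median 0.03). Mmp13, a collagenase, fell from 139.7 and 219 to 28.8 and 13.1 CPM (−3.09 ± 0.55, adjusted p = 0.0161), and Serpinb2, an inhibitor of plasminogen activators, had 40 and 113 counts in LPS and 0 and 2 with HACA, a ratio of 116 (95% interval 31.7 to 970.3). Growth factor genes had 4 of 11 lower and 1 higher (median 0.38; under library totals 4 lower, 2 higher, median 0.99). Ereg, a ligand of the same receptor as Areg, had 42 and 112 and 2 and 0 counts, a ratio of 117 (95% interval 31.9 to 977). Pdgfb, a mitogen of mesenchymal cells, rose from 40.2 and 32.7 to 104 and 92.2 CPM (1.43 ± 0.23, adjusted p = 0.0102). Alternative activation markers had 2 of 11 lower and none higher (median −0.68; under library totals 2 lower, 1 higher, median 0.03). Among all genes 7.67% were lower and 5.74% higher. Ccl22, a T cell attractant, fell from 39.01 and 42.4 to 2.49 and 1.69 CPM (−4.27 ± 0.32, adjusted p = 0.00165) and Tgm2, a transglutaminase, from 370.3 and 981 to 104 and 180.2 CPM (−2.25 ± 0.48, adjusted p = 0.0279). The mannose receptor gene Mrc1 held 931 and 607 CPM in LPS and 646 and 658 CPM with HACA (−0.24 ± 0.23, adjusted p = 0.532). Growth factor genes higher numbered 3 without LPS replicate 1 and 0 without LPS+HACA replicate 1. In these 3 lists members lower numbered 2, 3 and 2 without LPS replicate 2, 2, 2 and 1 without LPS+HACA replicate 1, 1, 2 and 1 without LPS+HACA replicate 2, 2, 4 and 1 without control replicate 1 and 2, 4 and 1 without control replicate 2. These calls ended without LPS replicate 1 for Mmp13 (adjusted p = 0.0592), without LPS replicate 2 for Mmp13 (adjusted p = 0.12) and without LPS+HACA replicate 2 for Mmp13 and Tgm2 (adjusted p from 0.055 to 0.0583). The test was missed without LPS+HACA replicate 1 for Pdgfb and Tgm2 (adjusted p from 0.0665 to 0.131), without control replicate 1 for Tgm2 (adjusted p = 0.0586) and without control replicate 2 for Tgm2 (adjusted p = 0.059). Other settings ended calls in the fit of the 4 LPS and LPS+HACA libraries for Tgm2 (adjusted p = 0.0652).

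Lists of broad cell functions and of other cell types were read beside these changes. Their counts are to be read against 7.67% lower and 5.74% higher over all genes. Cell cycle genes had 1 of 23 higher and none lower (median 0.30; under library totals 0 lower, 1 higher, median 0.85), the thymidine kinase gene Tk1 (1.18 ± 0.26, adjusted p = 0.0248). Their summed level was 2552 and 1111 CPM in LPS and 2079.6 and 435 CPM with HACA, so replicate 1 was the higher in both groups. It was so in control as well, at 1122 and 266 CPM. Translation genes had 1 of 20 lower and none higher (median −0.66; under library totals 0 lower, 0 higher, median 0.01). Macrophage markers had 2 of 15 lower and none higher (median −0.08; under library totals 1 lower, 4 higher, median 0.58), among them the myeloid factor gene Spi1 (−1.17 ± 0.21, adjusted p = 0.0139). Macrophage markers lower numbered 4 without LPS replicate 1, 1 without LPS+HACA replicate 1 and 1 without LPS+HACA replicate 2, and 1 was higher without LPS replicate 2. Members of the translation list lower numbered 3 without LPS replicate 1, 0 without LPS replicate 2, 0 without LPS+HACA replicate 1, 0 without control replicate 1 and 0 without control replicate 2. Adgre1, which encodes F4/80, had too few counts to be tested, which need not mean low expression. The test was missed without LPS+HACA replicate 1 for Tk1 and Spi1 (adjusted p from 0.115 to 0.15), without LPS+HACA replicate 2 for Tk1 and Spi1 (adjusted p from 0.0702 to 0.082) and without control replicate 1 for Tk1 (adjusted p = 0.0653). Significance was lost without control replicate 2 for Tk1 (adjusted p = 0.0695). Calls also ended in the fit of the 4 LPS and LPS+HACA libraries for Tk1 and Spi1 (adjusted p from 0.0568 to 0.0654) and with library totals for Spi1 (adjusted p = 0.0743).

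Of 10 dendritic cell markers 6 were measured and 2 fell (median −2.58; under library totals 2 lower, 0 higher, median −1.93). All genes had 7.67% lower and 5.74% higher (3.05% and 20.5% under library totals). The summed level of the list was 61.9 and 94.6 CPM in LPS and 23.9 and 32.9 CPM with HACA. Those that fell were Fscn1, an actin bundler that macrophages also switch on with LPS, from 14.7 and 21.7 to 0.972 and 1.62 CPM (−3.81 ± 0.53, adjusted p = 0.00668), and the chemokine receptor gene Xcr1, from 18.7 and 13.6 to 3.77 and 2.096 CPM (−2.45 ± 0.38, adjusted p = 0.00919). Both were also scarce in control, Fscn1 at 0.941 and 0.265 CPM and Xcr1 at 1.44 and 1.12 CPM. Dendritic markers lower numbered 4 without LPS replicate 1 and 1 without LPS+HACA replicate 2. Clec9a, Cd209a, Siglech and Batf3 had too few counts to be tested, and the part of such cells in the other results was not tested. In bulk RNA fewer cells of a type and less RNA per cell cannot be told apart. Neutrophil markers had 7 of 12 measured, 0 called by edgeR with group the only term, 0 by DESeq2 or limma-voom and 0 at an unadjusted p under 0.05 (median −0.82; under library totals 0 lower, 0 higher, median −0.10), with summed levels of 250.3 and 124 CPM in LPS and 205 and 98.6 CPM with HACA. The neutrophil genes Ly6g, Mpo, Elane, Cxcr2 and S100a9 had too few counts to be tested. Stromal markers had 5 of 10 measured, likewise with 0 called in each way, with sums of 42.9 and 5.59 CPM in LPS and 62.7 and 3.25 CPM with HACA, again higher in replicate 1. Lymphocyte, mast and erythroid lists had 1 to 3 measured members each. Ighm, the IgM heavy chain, rose from 2.86 and 2.697 to 12.1 and 6.76 CPM (1.77 ± 0.36, adjusted p = 0.0208), Hdc, the histidine decarboxylase gene, fell from 18.3 and 17.2 to 2.06 and 1.01 CPM (−3.51 ± 0.54, adjusted p = 0.00871), and the platelet chemokine gene Pf4 fell from 18.9 and 31.2 to 9.66 and 12.1 CPM (−1.20 ± 0.32, adjusted p = 0.0469). Control held 10.2 and 11.3 CPM of Ighm, 0.251 and 0.992 of Hdc and 9.91 and 7.54 of Pf4. Significance was lost without LPS+HACA replicate 2 for Xcr1 and Pf4 (adjusted p from 0.0503 to 0.132), without LPS+HACA replicate 1 for Ighm and Pf4 (adjusted p from 0.134 to 0.251) and without control replicate 1 for Ighm and Pf4 (adjusted p from 0.0554 to 0.0964). The threshold was missed without control replicate 2 for Ighm and Pf4 (adjusted p from 0.0587 to 0.0965) and without LPS replicate 2 for Pf4 (adjusted p = 0.134). Some calls ended in the fit of the 4 LPS and LPS+HACA libraries for Ighm and Pf4 (adjusted p from 0.0633 to 0.103), with library totals for Pf4 (adjusted p = 0.204) and with limma-voom for Pf4 (adjusted p = 0.0561). Further losses came without the robust option for Pf4 (adjusted p = 0.0536) and when each gene was counted by its main transcript for Pf4 (adjusted p = 0.0601).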

How the data were processed

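Per the labels' protocols, mRNA was pulled down with poly-A beads and made into Illumina TruSeq libraries. The authors deposited raw counts for each annotated transcript and FPKM values that equalled count over length and 1 size per library to within 0.1% for at least 99.7% of 7643 well-counted transcripts, so only the counts were analysed. The submitters' processing notes name STAR 2.5.4b, Trim Galore, CASAVA, DESeq2 1.26.0, edgeR 3.28.1, limma and the builds GRCm38 and GRCh38, without roles. For the counting program and strand use the sources used here give nothing, so reads of overlapping or antisense genes cannot be separated, as for Il1b, Csf2, Irf7, Cxcl10, Stat5a, Myd88 and Pfkp.

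Counts of 141524 of 142647 transcripts were summed into 55263 GENCODE vM21 genes (GRCm38). The rest, at most 0.115% of a library, were left out. Genes were filtered with filterByExpr and fitted with edgeR 4.0.16 (R 4.3.3) as a robust quasi-likelihood model of group over all 6 libraries with TMM factors and 3 residual degrees of freedom, with Benjamini-Hochberg adjustment over 17113 genes. The SE is the log2 fold change over the square root of F. On simulated counts (16275 genes, 100 changed at each fold) the fit recovered 61% of 4-fold and 1% of 2-fold changes with 6 false calls. Intervals cover counting error only. Named genes were the 12 largest changes each way among non-overlapping called genes of at least 10 CPM, the 6 most abundant each way, up to 2 called members per list and direction, and 22 chosen genes. Some genes that the rule names are not reported here. The members and 41 lists were chosen with earlier results of these data known. Alternatives included DESeq2 1.42.0 and limma-voom 3.58.1.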

Additional observations from a re-analysis of the deposited data

How the results depend on the processing

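The 2295 calls depended most on the scaling and on which libraries entered. Genes higher with HACA numbered 983, and 3501 with library totals, 1845 with no filter, 588 with limma-voom, 252 with the 4 LPS and LPS+HACA libraries alone and 152 to 1617 leaving out 1 library. Genes lower numbered 1312, and 522 with library totals, 509 with the 4 libraries and 216 to 1793 leaving out 1 library. The other alternatives (RLE factors, DESeq2, a CPM filter, no robust option, main transcripts, no misc_RNA) kept both counts within 1.5 times. Transcripts higher numbered 1495, and 5475 with library totals, 2443 with the replicate block and 478 with the 4 libraries. Transcripts lower numbered 1985, and 747, 3290 and 956 in the same order. With the replicate number as a replicate block genes higher were 1955 and genes lower 2356. The block added calls for Cd86 (adjusted p = 0.00838) and Hmox1 (adjusted p = 0.0232), and it called 2 of 7 neutrophil markers, 13 of 21 NRF2 genes and 12 of 25 sterol genes lower. Deviations of same-numbered libraries from their group means correlated across genes. The correlation was 0.50 for LPS with LPS+HACA, 0.51 for LPS+HACA with control and 0.31 for LPS with control. The labels do not tie the numbers to a shared animal or batch. No named gene changed sign with a call, and 48 of the 110 named genes called passed in all 17 alternatives, while 56 lost their call without LPS+HACA replicate 1 and 39 without LPS+HACA replicate 2. The cause was not tested, beyond fewer samples in the smaller fits. On simulated counts with 2 libraries a group, where 100 genes changed 2-fold and 100 changed 4-fold, 2-fold changes were rarely called. The data held many more calls, so that recovery need not apply to them. Genes called here at under 2-fold included Tet3 (1.87-fold higher) and Rassf4 (1.91-fold lower).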

Other observations

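Transcripts of a gene could also be followed one by one, since the counts were deposited per transcript. Of 31475 transcripts tested with the same edgeR fit, 1985 were lower with HACA and 1495 higher. In 4 genes, named here after their values were seen, transcripts were called in both directions. Tsc22d1, a leucine zipper gene with long and short protein forms, did not pass as a gene. Its transcript ENSMUST00000022587 fell from 13.2 and 19.7 to 1.24 and 2.62 CPM (−3.09 ± 0.42, adjusted p = 0.00192), and ENSMUST00000134109 fell from 8.53 and 23.7 to 1.11 and 1.38 CPM (−3.69 ± 0.51, adjusted p = 0.00204). ENSMUST00000133224 fell from 3.61 and 9.32 to 0.619 and 0.591 CPM (−3.40 ± 0.63, adjusted p = 0.00773), while ENSMUST00000110888 rose from 3.01 and 3.42 to 6.44 and 8.92 CPM (1.25 ± 0.35, adjusted p = 0.0431). In Hivep3, a zinc finger gene that binds kB-like motifs, ENSMUST00000106307 fell from 82.00 and 208 to 40.9 and 24.2 CPM (−2.16 ± 0.43, adjusted p = 0.0141) and ENSMUST00000084306 rose from 0.502 and 1.05 to 3.77 and 2.62 CPM (2.03 ± 0.47, adjusted p = 0.0214). The others were Fam49b and the histone methyltransferase gene Kmt5a.

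Shares of calls are given by gene type, beside 7.67% lower and 5.74% higher over all genes, and differences between types were not tested. Of 11253 protein-coding genes, 8.85% were lower and 6.26% higher. Of 506 lincRNA genes, 6.13% were lower and 7.31% higher. Of 1735 processed pseudogenes, 5.99% were lower and 1.67% higher, and these share sequence with their parent genes.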
